A study of Homo sapiens with 9 samples.

Results

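Desmosomes are spot-like junctions that hold epithelial cells together and tie their keratin filaments across the cell border. Desmocollins and desmogleins, the desmosomal cadherins, span the membrane and bind the neighbouring cell. Plakoglobin (JUP) and the plakophilins, armadillo proteins, sit on the cadherin tails, and desmoplakin (DSP), a plakin, links them to keratin. PERP, a tetraspan membrane protein, is a target of p53 and p63 and is needed for stable desmosomes in mouse skin. In the mammary gland, desmosomes join the luminal and the basal epithelial cells.

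The 10 genes described here were chosen by name for this function and not by a cutoff on measured values, though with earlier results of these data known. They were DSC2, DSC3, DSG2, DSG3, JUP, PKP1, PKP2, PKP3, DSP and PERP. Each was matched to a single Ensembl gene ID among the 60308 IDs of the count files. RNA was sequenced from 9 cultures of MCF10A, an immortalised, non-tumorigenic line of human breast epithelial cells. All 9, controls included, carried ectopic MYC (pBABE-hygro-MYC) and PI3KH1047R, a PI3K with an activating change in its catalytic subunit (pMN-IRES-GFP-PI3KH1047R), and a hairpin that 2 µg/mL doxycycline switched on for 72 hours. The groups were hairpin shG9a_1 and hairpin shG9a_4, both against EHMT2, which encodes G9a, an enzyme that methylates lysines of histone H3, and the scrambled hairpin shSCR, with 3 replicates each that the design text calls biological. Cells were harvested before they were confluent, per the labels, and whether the replicates came from separately infected cultures is not stated.

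The libraries held 53065611 to 76958831 reads in genes, and the replicate 3 libraries, at 53065611 to 54477100, were the smallest of each group. EHMT2 averaged 20.4 ± 2.59 CPM in shG9a_1, 30.9 ± 3.32 CPM in shG9a_4 and 47.3 ± 3.35 CPM in shSCR (CPM are counts scaled to a common library size, here by TMM, which also corrects for composition; SD, n = 3 each). It fell with shG9a_1, to 0.432 of its shSCR level (edgeR adjusted p = 0.00766). With shG9a_4 it stood at 0.654 of its shSCR level and missed the threshold of 0.05 (edgeR adjusted p = 0.259), which it passed with DESeq2 or without the filter on low counts. The shG9a_1 call was lost, at an adjusted p of up to 0.0622, when shSCR replicate 1, shG9a_1 replicate 2 or shG9a_1 replicate 3 was left out. The 6 basal mammary markers, KRT5 among them, all averaged at least 1 CPM, and KRT5 had 1842 to 3211 CPM. Blood markers summed to at most 0.0926 CPM and those of cardiomyocytes, which also build desmosomes, to at most 0.169 CPM. Of 6 fibroblast markers 3 reached 1 CPM, nearly all of it DCN (decorin, a matrix proteoglycan), at 134.6 to 413 CPM.

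RefSeq gives a promoter window for 8 of the 10 genes and none here for PKP2 and PKP3. The windows of DSG3 and DSP are shown because these genes differed between replicate numbers under every setting tried for that term, and that of DSG2 because it lies next to DSG3 on chromosome 18 and did not. Each is the 250 bases before the RefSeq start (GRCh38.p14), 5′ to 3′ on the gene's strand. Capitals mark, on either strand, the GC box GGGCGG, the E-box CACGTG bound by MYC and MAX, the AP-1 motif TGANTCA, the grainyhead motif AACCNGTT and TATAAA.
DSG3, chr18:31447491-31447740, plus strand: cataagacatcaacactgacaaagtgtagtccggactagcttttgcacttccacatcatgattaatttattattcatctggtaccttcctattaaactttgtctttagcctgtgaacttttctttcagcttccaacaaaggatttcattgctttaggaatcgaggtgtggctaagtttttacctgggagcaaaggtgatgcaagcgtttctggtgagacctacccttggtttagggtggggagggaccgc
DSP, chr6:7541421-7541670, plus strand: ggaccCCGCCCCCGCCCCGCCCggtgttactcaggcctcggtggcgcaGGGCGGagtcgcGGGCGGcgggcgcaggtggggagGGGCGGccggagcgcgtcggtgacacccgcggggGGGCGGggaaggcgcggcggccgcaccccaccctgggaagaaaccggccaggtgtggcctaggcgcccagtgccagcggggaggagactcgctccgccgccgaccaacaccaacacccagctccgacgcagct
DSG2, chr18:31497927-31498176, plus strand: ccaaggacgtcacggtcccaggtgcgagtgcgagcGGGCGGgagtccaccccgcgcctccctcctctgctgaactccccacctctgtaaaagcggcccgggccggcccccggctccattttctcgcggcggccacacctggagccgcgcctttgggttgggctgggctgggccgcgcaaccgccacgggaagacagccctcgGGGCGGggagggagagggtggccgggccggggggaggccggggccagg

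These windows were unlike each other in base composition. That of DSP had 78.0% G and C with 33 CpG dinucleotides and 7 GC boxes, some of them adjoining. That of DSG2 had 75.2% G and C, 26 CpG dinucleotides and 2 GC boxes. That of DSG3 had 42.8% G and C, 4 CpG dinucleotides and none of the motifs searched except the loose E-box form CANNTG, which was left in lower case and was present once. The bases after the RefSeq start of DSG3 were not found in a transcript of GENCODE release 29, while those of DSP and DSG2 were. Over all 35116 windows of this length, the median G and C content was 58.0%, 42.6% held a GC box and 61.8% held CANNTG. No window of these genes held CACGTG, which 6.3% of all windows did, nor the grainyhead motif (1.5% of all) or TATAAA (10.7% of all). TGANTCA, found in 6.6% of all windows, occurred once, in the PERP window. A match is a description of letters and not a bound site.

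Read levels per length of exon put the desmosome genes in a wide order. On the RPKM scale, which divides CPM by the kilobases of exon, the means over the 9 libraries were 54.2 for PERP, 49.2 for DSG2 and 37.5 for DSP. DSG3 followed at 17.2 RPKM, DSC3 at 9.46, PKP3 at 9.12 and PKP2 at 8.53. JUP had 3.92 RPKM and DSC2 2.48, and PKP1 was near 0 at 0.0123. The library ranges of PERP (46.1 to 59.7 RPKM) and DSG2 (44.6 to 56.6 RPKM) overlapped, and DSP (26.2 to 47.8 RPKM) reached into both. DSC3 (7.58 to 10.9 RPKM), PKP3 (5.85 to 10.9 RPKM) and PKP2 (7.47 to 9.56 RPKM) did not separate either. At the level of RNA, DSG2 was thus above DSG3 and DSC3 above DSC2, and both PKP2 and PKP3 were present with next to no PKP1. Protein was not measured. Some of the order depends on exon length: by median CPM, DSC2 (31.4) stood above JUP (19.2) and PKP2 (61.5) above PKP3 (37.6).

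**Figure D1:**
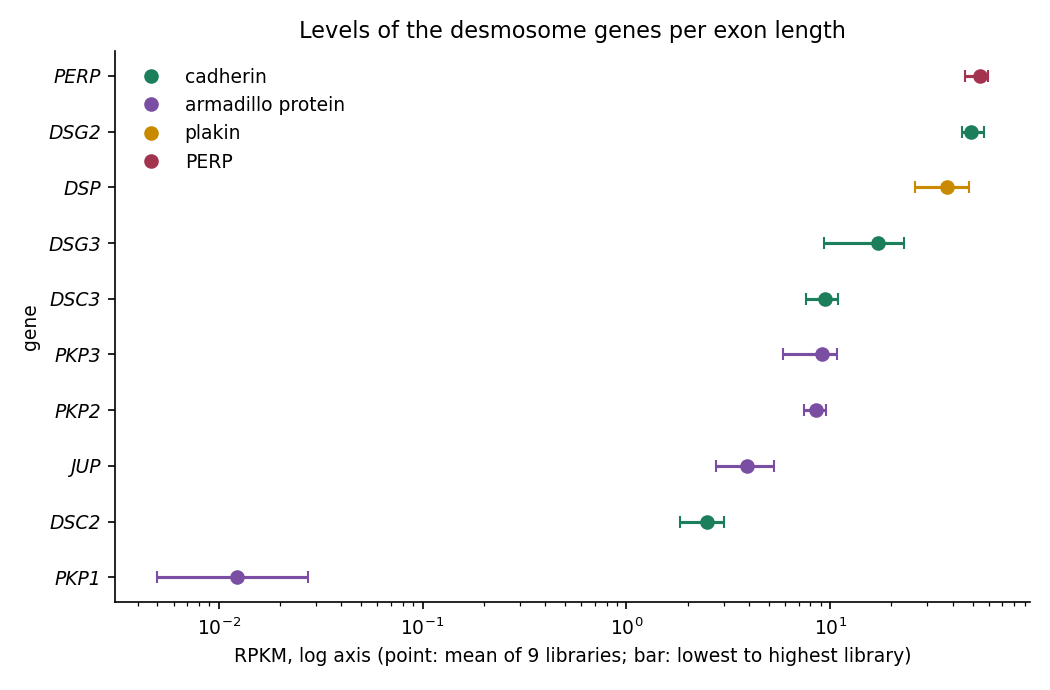
RPKM of each desmosome gene on a log axis, with a point for the mean of the 9 libraries and a bar from the lowest to the highest library, coloured by protein family. PERP, DSG2 and DSP lie at 37.5 to 54.2 RPKM, most others between 2.48 and 17.2 RPKM, and PKP1 at 0.0123 RPKM.

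The desmosomal cadherins of the upper, cornifying layers of skin were close to undetected. DSC1, DSG1 and DSG4 had at most 0.0395 CPM in any library, and CDSN, the corneodesmosin gene, had at most 0.163 CPM. None of these 4 passed the filter on low counts. PKP1, the plakophilin best known from skin, had 2 to 13 reads per library and did not pass it either, which left 9 of the 10 genes for the tests.

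No desmosome gene passed the test with either hairpin. In edgeR's quasi-likelihood test over 18435 genes, at an adjusted p under 0.05, 0 of the 9 were called in shG9a_1 against shSCR, where 7 genes (0.0380%) were called in all. In shG9a_4 against shSCR 0 of the 9 were called and 5 genes (0.0271%) in all, and in shG9a_4 against shG9a_1 0 of the 9 and 0 genes (0%). At an unadjusted p under 0.05 edgeR, in this fit without the replicate number, gave 0, 3 and 1 of the 9 in these comparisons, against 7.5%, 2.38% and 4.09% of all genes. limma-voom and DESeq2 called 0 of the 9 in each of the 3 comparisons, and edgeR without the filter called DSG3 in shG9a_4 against shSCR only. Both hairpins were set against the same 3 shSCR libraries, so their differences are not independent of each other. In bulk RNA, fewer cells of a type and less RNA per cell cannot be told apart.

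The direction of the differences was nevertheless mostly upward with shG9a_4, and less so with shG9a_1. With shG9a_1, 6 of the 9 genes had a log2 fold change above 0 and the median of the 9 was 0.07, where the median over all genes was 0.00 and 50.2% of genes were above 0. Of these 6, JUP, PKP2 and DSP fell below 0 when shG9a_1 replicate 3 was left out. With shG9a_4, 8 of the 9 genes were above 0 and the median was 0.17, where 50.8% of genes were above 0. Of these 8, DSC2 and JUP fell below 0 when some single libraries were left out. Several of the genes also varied together by replicate number, so their directions are not 9 separate observations. The 10 genes summed to 1212 ± 144.6 CPM in shG9a_1, 1318 ± 90.8 CPM in shG9a_4 and 1136 ± 180.7 CPM in shSCR (SD, n = 3 each), and these spreads overlap.

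Among the desmogleins, DSG2, the most widely expressed desmoglein, had 321, 294 and 308 CPM in shG9a_1 (replicates 1 to 3), 304, 350.3 and 308 CPM in shG9a_4, and 285, 276 and 292 CPM in shSCR. All 6 knockdown libraries lay above all 3 controls, by a small margin. Its log2 fold change was 0.11 (SE 0.07, edgeR adjusted p = 0.771) with shG9a_1 and 0.17 (SE 0.07, edgeR adjusted p = 1) with shG9a_4. DSG3, the desmoglein of basal keratinocytes and the pemphigus vulgaris antigen, had 98.8, 75.5 and 116 CPM in shG9a_1, 100.4, 98.7 and 128 CPM in shG9a_4, and 74.8, 51.3 and 112 CPM in shSCR. The groups overlapped, since shSCR replicate 3 stood above 2 of the 3 libraries of each hairpin, but within every replicate number both hairpins were above shSCR. The log2 fold change was 0.29 (SE 0.24, edgeR adjusted p = 0.845) with shG9a_1 and 0.46 (SE 0.24, edgeR adjusted p = 1) with shG9a_4. With shG9a_4 the 95% interval ran from -0.08 to 0.99 on the log2 scale. The size rested on single libraries: without shSCR replicate 2 it was 0.05 with shG9a_1 and 0.21 with shG9a_4, and without shSCR replicate 3 it was 0.62 with shG9a_1 and 0.78 with shG9a_4. It was 0.14 with shG9a_1 without shG9a_1 replicate 3, and 0.44 without shG9a_1 replicate 2.

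Of the desmocollins, DSC3, the basal form, had 66.9, 54.3 and 61.7 CPM in shG9a_1, 76.2, 76.7 and 75.0 CPM in shG9a_4, and 70.6, 53.5 and 65.6 CPM in shSCR. All 3 shG9a_4 libraries lay above all other libraries, and those of shG9a_1 lay within the range of shSCR. The log2 fold change was -0.05 (SE 0.10, edgeR adjusted p = 0.949) with shG9a_1 and 0.26 (SE 0.10, unadjusted p = 0.0274, edgeR adjusted p = 1) with shG9a_4. Between the hairpins, shG9a_4 over shG9a_1, it was 0.32 (SE 0.10, unadjusted p = 0.0113, edgeR adjusted p = 1), so a difference between them did not pass the test. DSC2, the most widely expressed desmocollin, had 31.4, 23.3 and 34.2 CPM in shG9a_1, 30.9, 31.4 and 37.8 CPM in shG9a_4, and 31.8, 22.9 and 35.4 CPM in shSCR. The groups overlapped, and replicate 3 was highest in each.

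The make-up of the cadherin pairs differed by a few percentage points between groups, within overlapping ranges. DSG3 made up 23.8 ± 3.48% of the reads of both desmogleins in shG9a_1, 25.4 ± 3.71% in shG9a_4 and 21.4 ± 6.03% in shSCR (SD, n = 3 each). Within replicate number, it was higher in all 3 with shG9a_4 and in 2 of 3 with shG9a_1. DSC3 made up 67.5 ± 2.86%, 69.5 ± 2.65% and 68.0 ± 2.66% of the desmocollin reads in shG9a_1, shG9a_4 and shSCR. Within replicate number it was higher in all 3 with shG9a_4 and lower in all 3 with shG9a_1. Exact two-sided permutation tests gave p = 0.4 to 0.7. Exact tests that flip the signs of the differences within replicate number gave p = 0.25 to 0.5. In this design the former cannot go below 0.1 and the latter below 0.25, so neither could pass. These shares do not depend on the scaling between libraries. Within each group, the DSG3 share was highest in replicate 3 (27.4% in shG9a_1, 29.3% in shG9a_4, 27.7% in shSCR) and lowest in replicate 2 (20.4%, 22.0% and 15.7% in the same order). The DSC3 share was lowest in replicate 3 of every group, at 64.3 to 66.5%, against 68.0 to 71.2% in the other 6 libraries.

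JUP, which serves both desmosomes and adherens junctions and can act on the WNT pathway, had 15.8, 19.9 and 24.7 CPM in shG9a_1, 19.2, 13.6 and 26.3 CPM in shG9a_4, and 16.1, 15.2 and 23.3 CPM in shSCR. Its log2 fold changes of 0.14 (SE 0.24) and 0.11 (SE 0.25) with shG9a_1 and shG9a_4 were under their standard errors (edgeR adjusted p = 0.942 and 1). PKP2, the plakophilin of simple epithelia and heart, had 57.6, 52.6 and 65.9 CPM in shG9a_1, 63.6, 61.5 and 67.3 CPM in shG9a_4, and 54.1, 53.1 and 65.0 CPM in shSCR. It varied little between libraries. PKP3, found in most epithelia, had 27.6, 36.3 and 37.8 CPM in shG9a_1, 37.6, 22.2 and 41.1 CPM in shG9a_4, and 37.9, 29.6 and 40.9 CPM in shSCR. PKP3 was alone among the 9 in having a log2 fold change below 0 with both hairpins, -0.09 (SE 0.21) with shG9a_1 and -0.10 (SE 0.21) with shG9a_4, neither of which passed the test (edgeR adjusted p = 0.955 and 1).

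In a single library JUP and PKP3 stood at one end of their ranges and some other desmosome genes at the other end. In shG9a_4 replicate 2, PKP3 and JUP had their lowest values of all 9 libraries, while DSG2 and PERP had their highest, and DSC3 too. PKP2 made up 73.5% (Wilson 95% interval 72.2 to 74.6%) of the plakophilin reads there, against 58.8 to 67.6% in the other 8 libraries. The interval covers counting error only. Without that library, the PKP3 log2 fold change of shG9a_4 against shSCR was 0.12 and not -0.10. The depth of this library, 63501259 reads in genes, lay within the range of the others. Over all genes, though, it stood apart from its group. The chi-square per degree of freedom was 59.1 and 78.9 against replicates 1 and 3, and 32.4 between those. The plakins PLEC (428 CPM) and EVPL (11.1 CPM) also had their lowest values there, while PPL (19.4 CPM) did not. The deviation was thus not confined to desmosome genes, and its cause was not tested.

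DSP, the keratin anchor, had 327, 311 and 475 CPM in shG9a_1, 362, 387 and 483 CPM in shG9a_4, and 339.6, 264 and 457 CPM in shSCR. Replicate 3 stood above the other 2 libraries of its group in all 3 groups, and the groups overlapped. The log2 fold change was 0.07 (SE 0.21, edgeR adjusted p = 0.965) with shG9a_1 and 0.21 (SE 0.21, edgeR adjusted p = 1) with shG9a_4. PERP had 239.8, 214 and 244 CPM in shG9a_1, 245, 256 and 251 CPM in shG9a_4, and 210.2, 198 and 232 CPM in shSCR. All 3 shG9a_4 libraries lay above all 3 of shSCR and of shG9a_1, and the shG9a_1 and shSCR libraries overlapped. PERP had the smallest unadjusted p of the 9 with shG9a_4, at a log2 fold change of 0.23 (SE 0.08, unadjusted p = 0.0104, edgeR adjusted p = 1), and 0.13 (SE 0.08, edgeR adjusted p = 0.761) with shG9a_1.

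**Figure D2:**
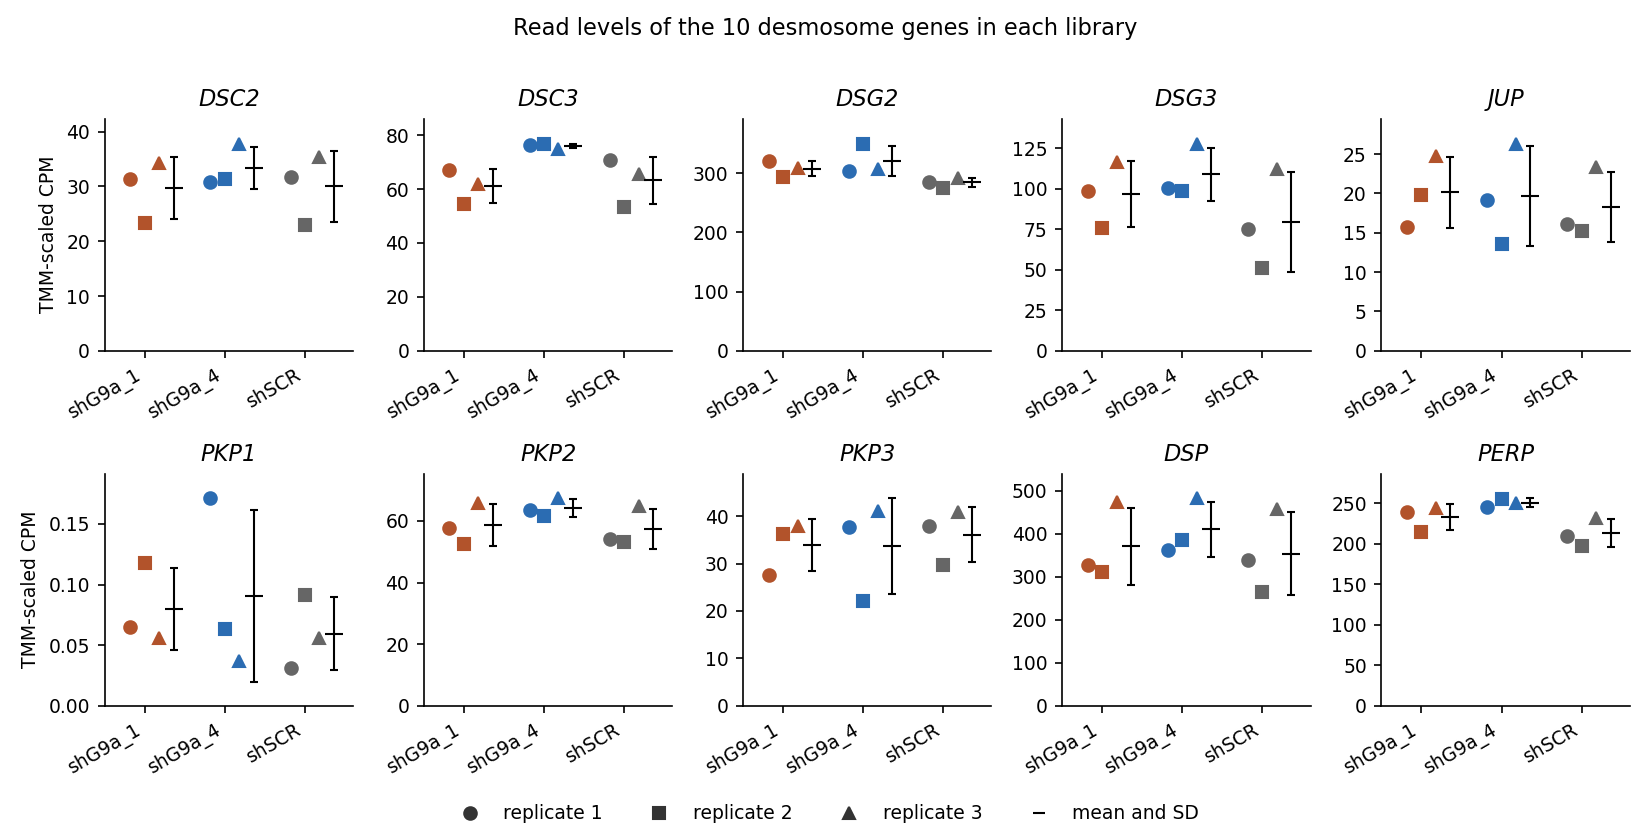
TMM-scaled CPM of each desmosome gene in the 9 libraries, with shG9a_1, shG9a_4 and shSCR from left to right, replicate numbers as marker shapes, and the mean and SD of 3 libraries beside them. The 3 shG9a_4 libraries of DSC3, DSG2 and PERP lie above the 3 of shSCR, and the triangles of replicate 3 are the highest of each group for DSC2, DSG3, JUP, PKP2, PKP3 and DSP.

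**Figure D3:**
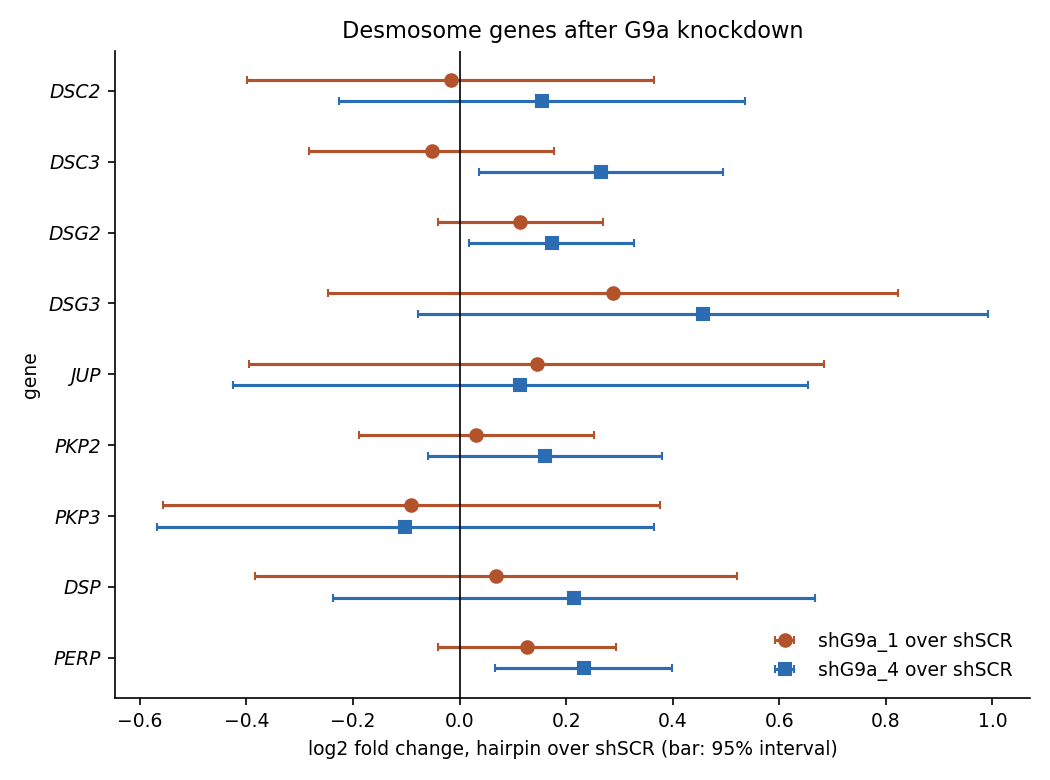
log2 fold change of the 9 tested genes for shG9a_1 over shSCR and shG9a_4 over shSCR, with the 95% interval of edgeR's fit without the replicate number. Most estimates lie between 0 and 0.46, and the intervals of DSC3, DSG2 and PERP with shG9a_4 lie above 0, none of which passed after adjustment over all genes.

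Counted without a test of size, DSG2 was the gene of the 9 whose 3 shG9a_1 libraries all lay above shSCR (1 of the 9, where 7.15% of all genes did), and DSC3, DSG2 and PERP did so with shG9a_4 (3 of the 9, where 3.25% did). None lay wholly below. Compared within replicate number, DSG2, DSG3 and PERP were higher with shG9a_1 in all 3 (3 of the 9, where 19.5% of genes were), and DSC3, DSG2, DSG3, PKP2, DSP and PERP with shG9a_4 (6 of the 9, where 12.5% were). With shG9a_4 the difference was largest in replicate 2 for DSC2, DSC3, DSG2, DSG3, DSP and PERP, and not for JUP, PKP2 or PKP3. For DSP it was 0.09, 0.55 and 0.08 on the log2 scale in replicates 1 to 3, and for DSG2 0.09, 0.34 and 0.07. In that pair shG9a_4 replicate 2 stood apart from its group, and shSCR replicate 2 had the lowest DSP and DSG2 of all libraries. With the replicate number as a block in the fit, edgeR called 143 genes (0.776%) with shG9a_1 and 14 (0.0759%) with shG9a_4, and 0 of the 9 in both. The nearest with each hairpin was DSG3. Its log2 fold change was 0.33 (SE 0.11, edgeR adjusted p = 0.216) with shG9a_1 and 0.51 (SE 0.11, edgeR adjusted p = 0.306) with shG9a_4.

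In the authors' deposited table, 8 of the 10 genes were listed, and DSC2 and DSG3 were not among its rows. None of the 8 reached a posterior probability of different expression of 0.95, which 3.00% of genes did with shG9a_1 and 0.614% with shG9a_4. The highest in the authors' deposited table was that of PERP with shG9a_4, 0.657 at a smoothed fold of 1.17. With shG9a_1 the highest in the authors' deposited table was that of DSG2, 0.364 at a fold of 1.08. The sources used here do not state which group is on top of that fold, and for PERP and DSG2 it lay on the same side of 1 as the hairpin over shSCR in the counts.

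More of the desmosome genes passed a test of the replicate number than of either hairpin. In a fit of group and replicate number, 4 of the 9 genes (DSC2, DSG3, JUP and DSP) passed the test of the replicate number, as did 1377 genes (7.47%) of all. All 4 were higher in replicate 3 than in replicate 2. DSP was higher by 0.57 on the log2 scale (edgeR adjusted p = 0.00367), DSG3 by 0.70 (edgeR adjusted p = 0.00852), JUP by 0.62 (edgeR adjusted p = 0.0192) and DSC2 by 0.48 (edgeR adjusted p = 0.0254). PKP2 (0.25, edgeR adjusted p = 0.0617), PKP3 (0.45, edgeR adjusted p = 0.219), DSC3 (0.14, edgeR adjusted p = 0.182) and PERP (0.13, edgeR adjusted p = 0.412) did not pass, nor did DSG2 (-0.01, edgeR adjusted p = 0.989). The mean of DSP over the 3 groups was 472 CPM in replicate 3, 321 CPM in replicate 2 and 343 CPM in replicate 1, and that of DSG3 was 119 CPM in replicate 3, 75.2 CPM in replicate 2 and 91.3 CPM in replicate 1. Replicate 3 was the highest of its group in all 3 groups for 6 of the 9 genes, as it was for 13.0% of all genes.

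DSG3 and DSP passed whichever library was left out. DSC2 and JUP lost the call, leaving 2 of the 9, without shSCR replicate 2, shSCR replicate 3, shG9a_1 replicate 3 or shG9a_4 replicate 3, and 6 of the 9 passed without shG9a_4 replicate 2. What the replicate number stands for (a day, a passage or a batch) is not given in the labels. The replicate 3 libraries also had the fewest reads. Their shares of unmapped reads (3.67 to 4.34%, against 2.75 to 3.21% in the others) and of multimapped reads (5.36 to 5.49%, against 4.57 to 5.23%) were the highest. The part of depth and of mapping was not tested. The fibroblast marker DCN moved the other way, with 190.5, 134.6 and 155 CPM in the replicate 3 libraries of shG9a_1, shG9a_4 and shSCR and 273 to 413 CPM in the other 6. The summed fibroblast list, nearly all of it DCN, ran from 140.0 to 197 CPM in replicate 3 and from 280.1 to 422 CPM in the others. LUM was also lowest in replicate 3 of each group, at 2.40 to 4.53 CPM. COL1A1 and PDGFRB were not, with 1.92 CPM of COL1A1 in shG9a_4 replicate 3 and 0.594 CPM of PDGFRB in shG9a_1 replicate 3, each the highest of its group. COL1A2 and PDGFRA were under 0.18 CPM in every library, and the part of other cells in the result was not tested.

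**Figure D4:**
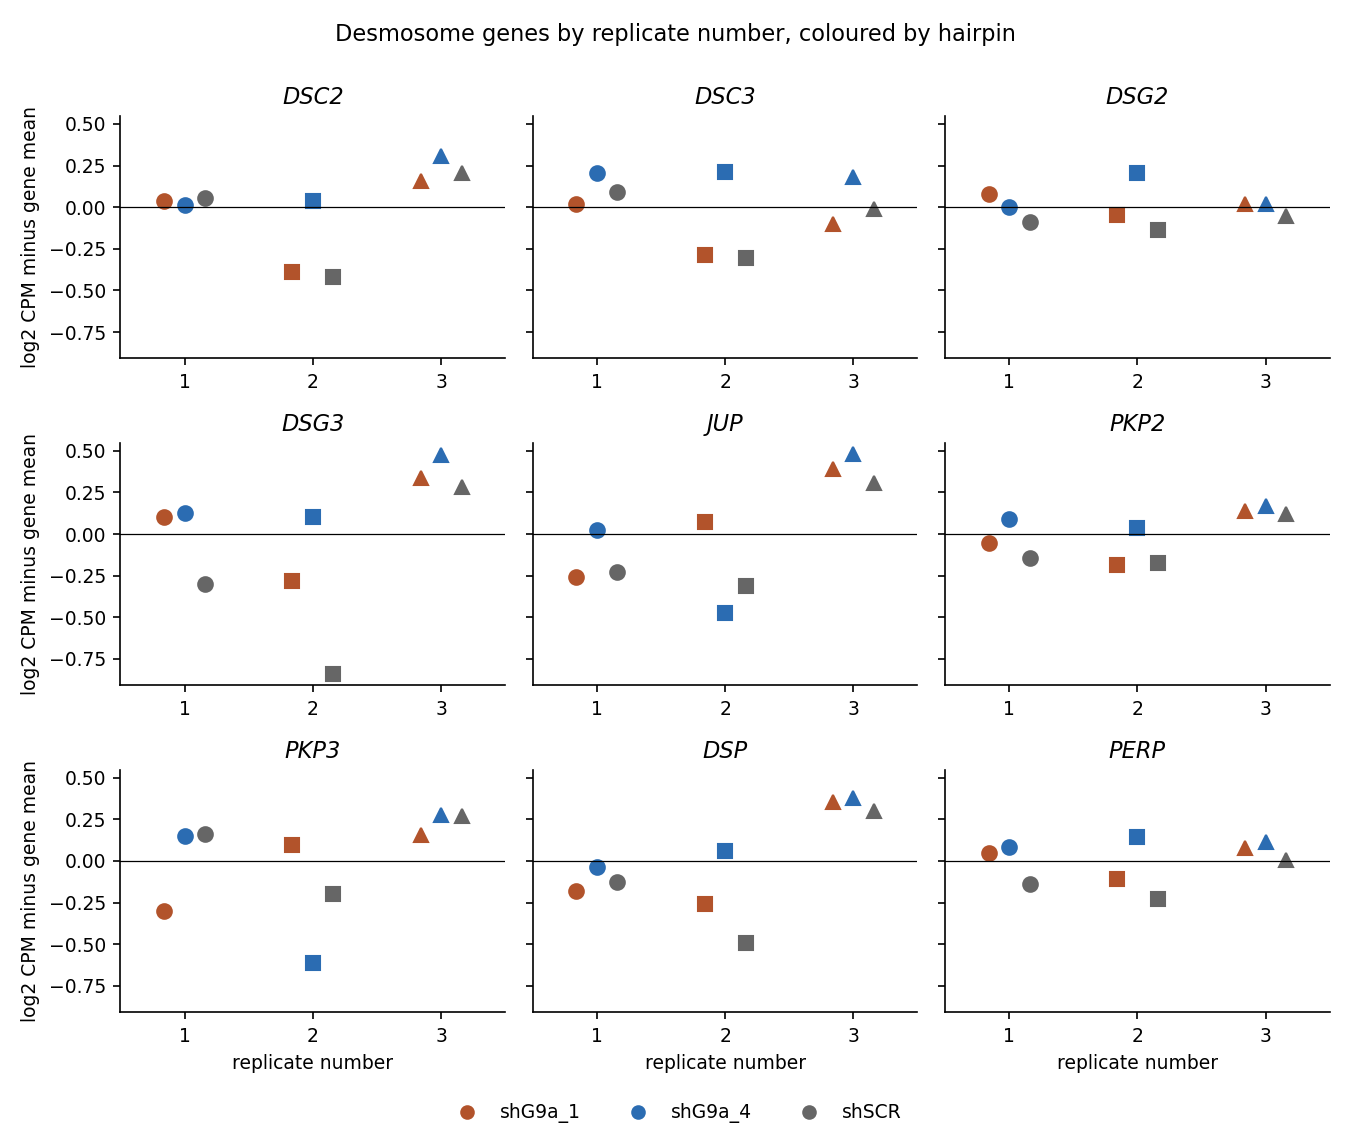
log2 CPM minus the mean of the gene over the 9 libraries, by replicate number, with points coloured by hairpin, for the 9 tested genes. For DSG3, JUP and DSP the 3 points of replicate 3 lie above the line at 0, and most of those of replicate 2 below it, while DSG2 stays near the line but for shG9a_4 replicate 2.

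Most of the keratins that desmosomes anchor also passed the test of the replicate number. Of 11 such keratins 10 were tested and 7 passed (KRT5, KRT14, KRT6A, KRT15, KRT16, KRT17 and KRT8), all higher in replicate 3 than in replicate 2, where 7.47% of all genes passed. KRT17, a keratin of basal and activated epithelium, was higher by 1.56 on the log2 scale (edgeR adjusted p = 0.000124), and KRT14, the partner of KRT5 in basal cells, by 1.08 (edgeR adjusted p = 0.000218). Reads of KRT14, KRT16, KRT17 and the KRT6 pair can be lost to near-identical copies, so their levels are uncertain. Against shSCR, 0 of the 10 passed with either hairpin, though 10 of 10 had a log2 fold change above 0 with each, with medians of 0.38 for shG9a_1 and 0.20 for shG9a_4. KRT14 had 54.5, 40.4 and 85.6 CPM in shG9a_1, 61.2, 35.5 and 66.1 CPM in shG9a_4, and 32.6, 19.8 and 47.9 CPM in shSCR. Its log2 fold change was 0.85 (SE 0.34, edgeR adjusted p = 0.633) with shG9a_1 and 0.70 (SE 0.34, edgeR adjusted p = 1) with shG9a_4, and with the replicate block both passed, at 0.87 (edgeR adjusted p = 0.00576) and 0.74 (edgeR adjusted p = 0.0148). KRT16, a keratin of wounded epithelium, passed with the block for shG9a_1 only, at 0.71 (edgeR adjusted p = 0.0409), and was at 0.33 (edgeR adjusted p = 0.967) for shG9a_4. A difference between the hairpins in KRT16 was not shown by these 2 values.

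Of the 12 adherens junction genes 4 passed the test of the replicate number, where 7.47% of all genes did. CDH1 (E-cadherin) was higher in replicate 3 than in replicate 2 by 1.45 on the log2 scale (edgeR adjusted p = 4.41e-05), CDH3 (P-cadherin) by 0.82 (edgeR adjusted p = 7.51e-05) and NECTIN1 by 0.48 (edgeR adjusted p = 0.00761), while NECTIN3 was lower, at -0.32 (edgeR adjusted p = 0.0314). CDH1 had 42.0, 48.0 and 45.2 CPM in replicate 3 of shG9a_1, shG9a_4 and shSCR, against 13.1 to 23.0 CPM in the other 6 libraries. With the hairpins 0 of the 12 passed, and CDH1 and CDH3 had the largest differences, both with shG9a_4, at 0.29 (SE 0.50) and 0.30 (SE 0.30) on the log2 scale (edgeR adjusted p = 1 for both). Of 13 plakins, linkers and plaque-associated genes PPL (periplakin) alone passed the replicate number, a share near the 7.47% of all genes, with 25.7 CPM in replicate 3, 19.2 CPM in replicate 2 and 12.7 CPM in replicate 1 on average (edgeR adjusted p = 0.0025), and 0 passed with either hairpin. PPL (0.34, SE 0.33) and KAZN (-0.33, SE 0.19), a periplakin binding protein, had the largest log2 fold changes there, with shG9a_1 (edgeR adjusted p = 0.873 and 0.757).

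Of 15 transcription factors known to act on epithelial junction genes 12 were tested and 5 passed the replicate number, where 7.47% of all genes did. TP63, the p53 relative that switches on PERP and desmosomal genes in epithelium, was higher in replicate 3 than in replicate 2 by 1.14 on the log2 scale (edgeR adjusted p = 0.0025) and GRHL3, a grainyhead factor of epidermis, by 0.79 (edgeR adjusted p = 0.0308). KLF4, a factor of epithelial differentiation (-0.82, edgeR adjusted p = 0.00492), and ZEB1, a repressor of epithelial junction genes (-0.41, edgeR adjusted p = 0.0258), were lower in replicate 3 than in replicate 2. ZEB2, a relative of ZEB1, passed with replicate 1 as the lowest (edgeR adjusted p = 0.0238). Its means were 21.3 CPM in replicate 3, 24.1 CPM in replicate 2 and 18.3 CPM in replicate 1. TP63 was low throughout, at 2.33 to 7.07 CPM, GRHL2 had at most 0.0260 CPM and OVOL1 at most 0.0557 CPM. With the hairpins 0 of the 12 passed, and the largest differences were those of GRHL3 (0.51, SE 0.30) and TP63 (0.35, SE 0.38) with shG9a_4, on the log2 scale (edgeR adjusted p = 1 for both).

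Over the 9 libraries the most variable desmosome genes by the SD of log2 CPM were PKP1 (0.54, on 2 to 13 reads), DSG3 (0.41) and JUP (0.34), and the steadiest was DSG2 (0.10). Among 9102 genes of at least 10 CPM, the profile of DSG3 was closest to those of COBL (actin nucleation), CDS1 (phosphatidate metabolism) and SORL1 (a sorting receptor). Their root-mean-square differences from DSG3 were 0.15, 0.17 and 0.19 in log2 CPM once each gene was centred on its own mean. JUP was closest to PCYT2, SORBS3 and PIEZO1, at 0.10, 0.10 and 0.11. PKP1 was closest to ITGB2, QSOX1 and ACTA2, at 0.37, 0.39 and 0.40, a likeness that its few reads leave without weight.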

How the data were processed

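Stranded sequencing of total RNA was done with paired reads of 75 bases after removal of ribosomal RNA, per the labels' protocols. The authors deposited, per library, raw counts of reads per gene for both strands together and for each strand (sense and reverse), as STAR writes them. The tools listed in the submitters' processing notes, without their roles, are STAR 2.5.2a, DESeq, edgeR 3.14.0 and R 3.3.1, with hg19 and GRCh37 as builds. The annotation release is not named. The authors also deposited, per the file headers, a table per hairpin with posterior probabilities (scores from 0 to 1) and a fold (a linear ratio), made with an unnamed tool.

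The reverse-strand counts, 94.7 to 95.1% of stranded reads, went into the quasi-likelihood F-test of edgeR 4.0.16 (R 4.3.3, TMM, filterByExpr, Benjamini-Hochberg over 18435 genes), on all 9 libraries with a mean per group. Reads of no feature (12.2 to 15.4% of all) and the other summary classes were left out of library sizes. CPM are TMM-scaled, and RPKM divide them by the union of exons in GENCODE release 29. Same-numbered libraries deviated together (correlations of 0.178 to 0.461 over the 9 pairs, against -0.327 to 0.169 for the others), so the numbers were taken to pair the libraries, and a replicate block was an alternative. Other alternatives were RLE scaling, no filter, DESeq2 1.42.0, limma-voom 3.58.1, unstranded counts and leaving out each library. On simulated data the edgeR step recovered 82% of genes changed by 1 and 100% of those changed by 2 on the log2 scale, for shG9a_1 against shSCR over 18161 genes. It also called 17 unchanged genes. Changes as small as those of the desmosome genes were not simulated. No libraries of a group were duplicates (chi-square per degree of freedom 25.2 to 78.9). The genes and the 5 context lists were chosen with earlier results of these data known. Named were all 10 desmosome genes and EHMT2, and from each list the genes past the threshold and the 2 with the largest log2 fold change against shSCR. For the 3 desmosome genes with the largest SD, the 3 genes of closest profile were named. Libraries of total RNA also hold unspliced RNA, and p-values measure only the spread between these cultures.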

Additional observations from a re-analysis of the deposited data

Results flagged for a closer look

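On the strand opposite to that of the transcripts, which no comparison above used, PKP3 had a higher share of its reads with shG9a_4 than in any control. The share was 0.314, 0.285 and 0.531% of the PKP3 reads of both strands in shG9a_4 replicates 1 to 3, a mean of 0.377%, and 0.122, 0.175 and 0.0911% in shSCR replicates 1 to 3. These shares rest on 9, 4 and 12 reads in shG9a_4 and on 3, 4 and 2 reads in shSCR, so shG9a_4 replicate 2 had no more such reads than shSCR replicate 2, and the fewest reads on the counted strand of all libraries, 1400. The shG9a_1 libraries, at 0.0591 to 0.391%, overlapped both groups. A higher mean share was not particular to PKP3. It was also higher in shG9a_4 than in shSCR for DSC2 (0.198 against 0.0864%), JUP (0.184 against 0.0531%), PKP2 (0.126 against 0.0449%) and DSP (0.131 against 0.0729%). The same held for DSC3 (0.121 against 0.0335%), DSG2 (0.0661 against 0.0240%) and DSG3 (0.0622 against 0.0488%). How many of all genes had such a difference was not counted. The mean share was not higher for PERP (0.0577 against 0.0623%), nor for PKP1 on its few reads. In shG9a_4 replicate 3, JUP had 0.553% and DSP 0.318%, and the reverse-strand share of stranded reads was the lowest, 94.74%.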

How the results depend on the processing

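None of the 9 tested desmosome genes was called in a hairpin comparison under any of the 15 settings tried beside the main one, except DSG3 in shG9a_4 against shSCR without the filter on low counts (1 gene). Over all genes, shG9a_1 against shSCR gave 288 calls without the filter, 79 with DESeq2 and 143 with the replicate block, and 0 to 10 when a library was left out. The corresponding counts for shG9a_4 against shSCR were 49, 22, 14 and 0 to 7, and 1 with unstranded counts, and for shG9a_4 against shG9a_1 106 without the filter and 6 with DESeq2. The paired fit with the replicate block changed no call of a desmosome gene. The replicate number gave 2874 genes without the filter and 435 to 2109 when a library was left out, with 2 to 6 desmosome genes. Leaving out a library turned some directions of small differences, none of them past the threshold. With shG9a_1 the log2 fold change against shSCR then ran from -0.18 to 0.13 for DSC2, -0.157 to 0.0345 for DSC3, -0.0298 to 0.362 for JUP, -0.0592 to 0.13 for PKP2, -0.214 to 0.0422 for PKP3 and -0.15 to 0.30 for DSP. With shG9a_4 it ran from -0.0169 to 0.278 for DSC2, -0.14 to 0.32 for JUP and -0.26 to 0.12 for PKP3. For shG9a_4 over shG9a_1 it ran from -0.0168 to 0.0956 for DSG2, -0.30 to 0.17 for JUP and -0.18 to 0.21 for PKP3, and for replicate 3 over replicate 2 from -0.0612 to 0.0803 for DSG2. Differences in share, hairpin minus shSCR in percentage points, ran with shG9a_1 from -2.05 to 1.01 for DSC3, -0.469 to 5.54 for DSG3, -0.00025 to 0.0445 for PKP1, -0.147 to 4.08 for PKP2 and -4.08 to 0.12 for PKP3, and with shG9a_4 from -0.0107 to 0.0568 for PKP1. The causes were not tested. With 3 libraries a group, the 95% interval of DSG3 with shG9a_4 ran from -0.08 to 0.99 on the log2 scale in the fit without the block. In that fit neither 0 nor a rise of that size can be set aside. With the replicate block the interval ran from 0.27 to 0.76, and DSG3 was still not called (edgeR adjusted p = 0.306). PKP1 could not be followed at this depth.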
